A study of Mus musculus with 12 samples.

Results

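Matrix metalloproteinases (MMPs) and their tissue inhibitors (TIMPs) were followed in perfused mouse hearts with and without ischemia-reperfusion (IR). The genes described here are 6 MMP genes (Mmp2, Mmp3, Mmp9, Mmp11, Mmp14 and Mmp15) and all 4 TIMP genes (Timp1, Timp2, Timp3 and Timp4), taken by symbol. They are 10 of the 52858 genes in the deposited tables. All 10 were found once and all 10 were among the 15258 genes abundant enough to be tested. RNA was sequenced from 12 hearts of adult male mice in 4 groups of 3. C57-non-IR and C57-IR hearts came from C57BL/6J mice, the background strain. Slit2-non-IR and Slit2-IR hearts came from Slit2-Tg mice, a line screened for heterozygous carriers of a human SLIT2 cDNA. Its CMV promoter is not specific to a tissue or a heart cell type, and the line was founded in oocytes of a C57 by CBA cross. Every heart was excised and perfused through the aorta with a cell-free buffer, so no blood flowed through it during the experiment. IR hearts went through no-flow global ischemia and less than an hour of reperfusion, and non-IR hearts were perfused for the same total time. The genotype stands in the labels, whereas IR or non-IR was taken from the second letter of each sample title, matched to the 4 group names of the methods.

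MMPs are zinc-dependent endopeptidases that cut collagens, laminins, fibronectin and other matrix proteins, and they are made as inactive proenzymes that other proteases switch on. TIMPs bind the active enzymes one to one and block them. In the heart the gelatinase encoded by Mmp2 is made constitutively by fibroblasts and cardiomyocytes, the one encoded by Mmp9 comes mainly from leukocytes, and the balance of both families is best known for matrix remodelling after infarction. Protein and activity were not measured by these libraries, which hold RNA only.

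The 12 libraries held between 16601154 and 24841291 reads on genes. FPKM, the unit of the deposited values, is the number of fragments scaled to gene length and to a factor for each library, so levels can be compared between genes. Here that factor followed median-of-ratios size factors and not the total of reads. Mouse Slit2 was between 0.0847 and 0.813 FPKM in the 12 libraries. The transgene is human, so this mouse row does not check the labels. All 8 cardiomyocyte markers were detected in every group, with a summed level between 14760 and 22600 FPKM. Library Slit2-IR replicate 1 stood apart with 1833 FPKM summed over 8 atrial markers, against 93.5 to 319 in the other 11 libraries. The summed level of 8 fibroblast markers was 622, 1014 and 1026 FPKM in C57-IR hearts, 988 to 1063 in Slit2-IR hearts, 614 to 864 in C57-non-IR hearts and 697 to 1001 in Slit2-non-IR hearts. In these bulk samples, fewer cells of a type and less RNA per cell cannot be told apart. The 8 neutrophil markers summed to 0.159 to 1.44 FPKM, with Ly6g at 0 in every library. The labels call the replicates of a group independent samples and say no more, so p-values measure the spread between these samples.

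The upstream regions of 3 genes are shown because these genes span the range of behaviour described below. Timp1 and Mmp14 had the smallest p-values for the mean IR difference among the 4 inhibitors and the 6 proteases, and Mmp3 varied widely between hearts of the same group. The sequences are the 250 bases before the RefSeq start of each gene on GRCm38.p6, written 5′ to 3′, with capitals marking matches on either strand to the letters GGGCGG, to TGANTCA and to TATAAA.
Timp1, chrX:20869916-20870165, + strand: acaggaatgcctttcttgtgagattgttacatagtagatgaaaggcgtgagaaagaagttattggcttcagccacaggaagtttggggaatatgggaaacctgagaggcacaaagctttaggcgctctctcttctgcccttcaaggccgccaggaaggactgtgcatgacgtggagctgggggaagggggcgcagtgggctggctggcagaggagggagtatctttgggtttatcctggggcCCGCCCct
Mmp14, chr14:54431348-54431597, + strand: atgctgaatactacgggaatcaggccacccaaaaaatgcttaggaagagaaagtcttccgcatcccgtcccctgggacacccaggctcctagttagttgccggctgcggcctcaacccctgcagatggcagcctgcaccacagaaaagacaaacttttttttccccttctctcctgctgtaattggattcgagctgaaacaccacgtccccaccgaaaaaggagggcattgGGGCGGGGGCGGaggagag
Mmp3, chr9:7445572-7445821, + strand: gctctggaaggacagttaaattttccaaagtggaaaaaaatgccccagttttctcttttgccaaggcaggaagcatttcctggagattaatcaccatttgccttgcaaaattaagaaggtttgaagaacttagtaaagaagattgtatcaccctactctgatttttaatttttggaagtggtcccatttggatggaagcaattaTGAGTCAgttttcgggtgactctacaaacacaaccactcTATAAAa
Of the 10 genes, 8 matched an entry in the RefSeq promoter table, all but Mmp2 and Mmp9. GGGCGG, the core of the GC box bound by Sp factors, was found in 6 of these 8 regions (Mmp11, Mmp14, Mmp15, Timp1, Timp2 and Timp3) and in 32.7% of 32851 mouse promoter regions of the same length. In Mmp14 a pair of adjacent copies began 19 and 13 bases before the start, and in Timp1 the reverse complement began 8 bases before it. Mmp3 was the one gene of the 8 with TGANTCA, the AP-1 letters, which began 46 bases before its start, and the one with TATAAA. These letters were found in 6.75% and 12.4% of all the regions. The matches describe the letters of these windows and are not measured binding.

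The summed FPKM of the 4 TIMP genes was above that of these 6 MMP genes in 12 of 12 libraries. Against all 23 MMP genes looked up it was above in 11 of 12, the exception being Slit2-non-IR replicate 1 with 58.3 FPKM for TIMPs and 59.8 FPKM for MMPs. Timp2 had the highest mean level over the 12 libraries, 36.7 FPKM, at the 93.0 percentile of the tested genes, followed by Timp3 at 33.5 FPKM. Mmp2 and Mmp15 came next at 21.9 and 21.5 FPKM, then Timp4 at 15.4 FPKM, Timp1 at 4.01, Mmp3 at 3.57, Mmp14 at 3.40, Mmp11 at 1.72 and Mmp9 at 0.454 FPKM. The ranges of every pair of neighbours in this order overlapped. Timp4 was above Timp1 and Mmp11 above Mmp9 in 12 of 12 libraries, whereas Mmp2 was above Mmp15 in 6 of 12 and Timp1 above Mmp3 in 6 of 12, so these last neighbours had no fixed order. Mmp2 and Mmp15 together supplied 76.1% to 88.3% of the summed FPKM of the 6 MMP genes.

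IR against non-IR asks what the ischemic insult and early reperfusion did to these transcripts within each genotype. Timp1 showed the largest difference, with a mean fold difference of 2.13 in FPKM + 1 between IR and non-IR libraries. Mmp14 and Mmp2 were higher to a smaller degree. However, 0 of 10 genes passed an adjusted p of 0.05 in C57BL/6J hearts, 0 of 10 in Slit2-Tg hearts and 0 of 10 for the mean of both genotypes. Differences were fitted with limma on log2(FPKM + 1), and p-values were adjusted over all 15258 tested genes. The share of all tested genes that passed was 0.439% in C57BL/6J hearts, 0.505% in Slit2-Tg hearts and 3.48% for the mean of both genotypes. At an unadjusted p of 0.05, 1 of 10 genes passed in C57BL/6J hearts (Timp1, against 8.96% of all genes), 1 of 10 in Slit2-Tg hearts (Timp1, against 11.2%) and 3 of 10 for the mean (Timp1, Mmp14 and Mmp2, against 15.9%). The limma-voom fit of the recovered reads also passed 0 of 10 genes in each of these contrasts. At an unadjusted p of 0.05 it passed Timp1 in C57BL/6J hearts, Mmp14 but not Timp1 in Slit2-Tg hearts, and the same 3 genes for the mean. Same-numbered Slit2-Tg hearts deviated together, and a fit blocked on replicate number passed 0 of 10 genes after adjustment in Slit2-Tg hearts. At an unadjusted p of 0.05 this block passed 3 of 10 (Timp1, Mmp14 and Mmp15). Over all tested genes the block raised the adjusted calls in Slit2-Tg hearts from 77 to 194. The shares of all genes at the unadjusted threshold under limma-voom and the block are not given here, so these counts are no result about the 10 genes. In same-numbered Slit2-Tg pairs, 3 of 3 were higher after IR for Timp1, Mmp2, Mmp9 and Mmp15, and 0 of 3 for Mmp11. The other genes, Mmp14 among them, were higher in 2 of 3. In same-numbered C57BL/6J pairs, 3 of 3 were higher for Timp1, Timp2 and Mmp14, and 0 of 3 for Timp3. There it was 2 of 3 for Mmp2, Mmp3, Mmp9 and Mmp15, and 1 of 3 for Mmp11 and Timp4. The labels name no shared batch, and the share of all genes with 3 of 3 is not given here. For the mean of both genotypes 7 of the 10 genes had higher values after IR and 3 had lower ones, with a median log2 difference of 0.20, where the median over all tested genes was 0.0035.

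Timp1 (ENSMUSG00000001131, chrX:20870166-20874735) encodes an inducible inhibitor that blocks most soluble MMPs but inhibits the membrane-bound MMP14 poorly. Its level was 1.72, 1.36 and 2.54 FPKM in the C57-non-IR hearts and 1.81, 8.28 and 9.22 FPKM in the C57-IR hearts. It was 1.90, 1.76 and 2.80 FPKM in the Slit2-non-IR hearts and 7.32, 2.95 and 6.42 FPKM in the Slit2-IR hearts. Of the 6 IR libraries, 5 were above every non-IR library, and the exception was C57-IR replicate 1, which lay within the non-IR range. Both genotypes thus held 1 IR heart with a low value. In Slit2-Tg hearts that heart, replicate 2, was above all 3 non-IR hearts, so the groups did not overlap. The gap was narrow, with 2.95 FPKM against 2.80 FPKM in Slit2-non-IR replicate 3 and 63 reads behind each value. Groups that did not overlap in this direction were found for 8.64% of all tested genes in Slit2-Tg hearts and for 6.74% in C57BL/6J hearts. The log2 difference was 1.18 (SE 0.44, limma adjusted p = 0.403) in C57BL/6J hearts and 1.001 (SE 0.44, adjusted p = 0.416) in Slit2-Tg hearts. For the mean of both genotypes it was 1.09 (SE 0.31, 95% interval 0.41 to 1.78, a 2.13-fold difference in FPKM + 1), with an unadjusted p of 0.0048 and an adjusted p of 0.0885 by limma. With limma-voom on the recovered reads, which adds no 1 to FPKM, this mean log2 difference was larger, 1.42. Without C57-IR replicate 1 the mean difference was 1.39 with an adjusted p of 0.00304, and it passed the threshold in no other fit that left out 1 library. That library also had the lowest fibroblast marker sum of the 6 IR libraries, 622 FPKM against 988 to 1063 in the other 5, and a sum of 6 adipocyte markers of 0.222 FPKM against 18.3 and 20.8 FPKM in C57-IR replicates 2 and 3. The adipocyte sum was 0.0410 to 1.44 FPKM in C57-non-IR, 1.501, 7.97 and 10.5 FPKM in Slit2-non-IR and 12.9, 2.24 and 0.891 FPKM in Slit2-IR hearts. C57-IR replicate 1 was also the lowest of the 6 IR libraries for 4 genes described below that rose after IR. These were Plau (5.93 FPKM), Plaur (6.37), Sdc4 (11.6) and Thbs1 (22.7), each still above every non-IR library. Slit2-IR replicate 1, the library with 1833 FPKM of atrial markers, had the highest Timp1 level of its group. Without it the Timp1 difference in Slit2-Tg hearts was 0.79, with a limma unadjusted p of 0.139. The part of these markers, or of the low levels of those 4 genes, in the Timp1 result was not tested. Timp1 supplied 1.22% to 3.26% of the summed TIMP FPKM in the 6 non-IR libraries and 2.65% to 9.30% in the 6 IR libraries, so even at its highest it was a minor part of the inhibitor transcripts. Between 26 and 184 reads stood behind these values.

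**Figure D1:**
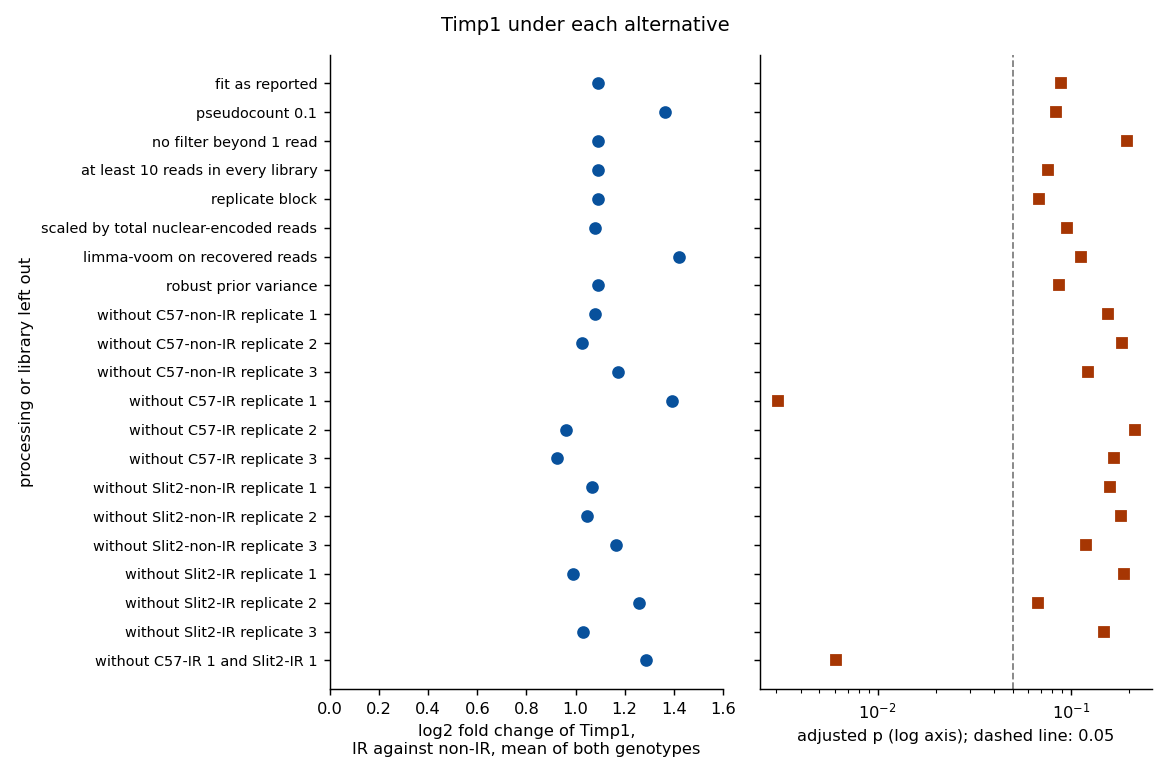
Timp1 difference between IR and non-IR hearts, averaged over both genotypes, under each processing alternative or with libraries left out. The left panel gives the log2 fold change, which stays between 0.93 and 1.42, and the right panel gives the limma adjusted p on a log axis, which is below the dashed line at 0.05 in the fits that leave out C57-IR replicate 1.

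The other 3 inhibitors were abundant and showed no IR difference beyond the spread of the hearts. Timp2 (ENSMUSG00000017466, chr11:118301069-118355740) encodes the inhibitor that also bridges pro-MMP2 to MMP14 for activation. It was 27.1, 39.3 and 35.2 FPKM in C57-non-IR, 27.9, 40.8 and 39.2 in C57-IR, 29.8, 39.7 and 38.8 in Slit2-non-IR and 41.0, 43.3 and 38.0 in Slit2-IR hearts. Its lowest value in 3 of the 4 groups was that of replicate 1, and the mean IR difference was 0.13 (SE 0.12, 95% interval -0.14 to 0.40). Timp3 (ENSMUSG00000020044, chr10:86300372-86349506) encodes the inhibitor that stays bound to the matrix and also blocks ADAM17. It was 30.7, 43.6 and 32.7 FPKM in C57-non-IR, 28.2, 39.5 and 31.4 in C57-IR, 19.8, 32.1 and 37.2 in Slit2-non-IR and 37.8, 48.9 and 20.5 in Slit2-IR hearts. The Slit2-IR hearts thus held both the highest Timp3 level and the second lowest of all 12, and the mean IR difference was 0.06 (SE 0.21). Timp4 (ENSMUSG00000030317, chr6:115241892-115252205) encodes the inhibitor best known for its high level in the heart. It was 17.2, 26.9 and 18.0 FPKM in C57-non-IR, 6.66, 22.2 and 19.3 in C57-IR, 6.81, 13.6 and 20.2 in Slit2-non-IR and 7.44, 16.2 and 10.3 in Slit2-IR hearts. Replicate 1 was the lowest heart in every group, and the mean IR difference was -0.33 (SE 0.32, 95% interval -1.04 to 0.37).

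**Figure D2:**
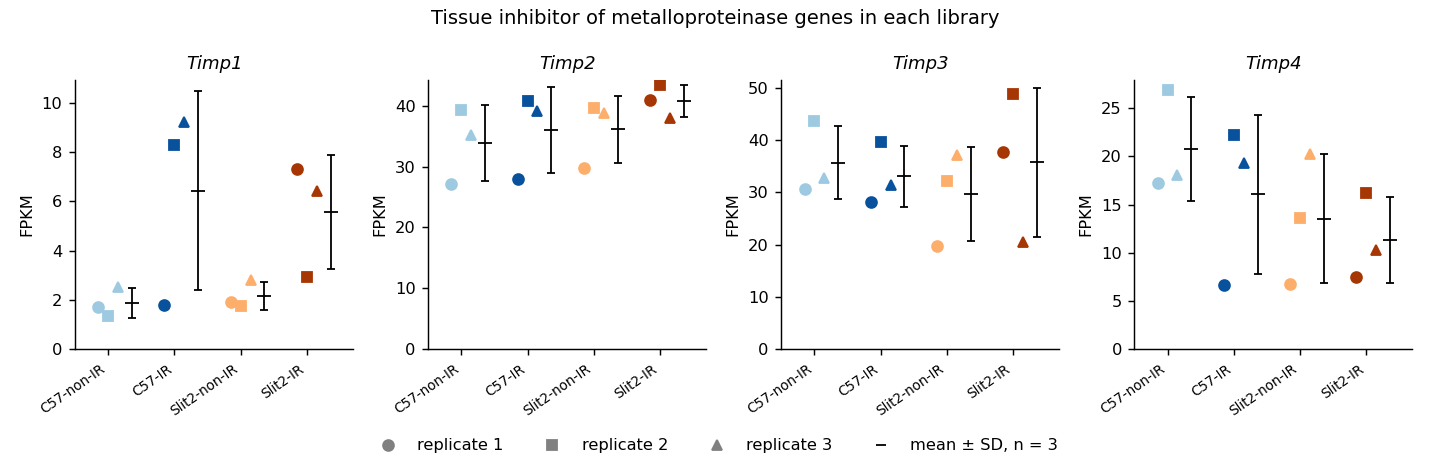
FPKM of the 4 TIMP genes in each of the 12 libraries, by group, with marker shapes for replicate numbers and the mean and SD of 3 libraries beside them. Timp1 lies at or below 2.80 FPKM in all non-IR hearts and reaches 9.22 FPKM after IR, while the groups of Timp2, Timp3 and Timp4 overlap.

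Among these 6 proteases, the membrane-bound Mmp14 had the IR difference farthest from 0 on the log2(FPKM + 1) scale, which compresses the differences of low genes such as Mmp9. Mmp14 (ENSMUSG00000000957, chr14:54431612-54445364) encodes MT1-MMP, a collagenase of the cell surface that activates pro-MMP2. It was 1.74, 2.74 and 3.10 FPKM in C57-non-IR, 2.32, 5.19 and 4.32 in C57-IR, 2.301, 3.30 and 2.34 in Slit2-non-IR and 4.18, 3.13 and 6.15 in Slit2-IR hearts. Of the 6 IR libraries, 4 were above every non-IR library, and the groups overlapped in each genotype. The log2 difference was 0.46 in C57BL/6J hearts, 0.56 in Slit2-Tg hearts and 0.51 (SE 0.18, 95% interval 0.11 to 0.92) for the mean of both, with a limma unadjusted p of 0.0175 and an adjusted p of 0.181. Mmp15 (ENSMUSG00000031790, chr8:95352268-95375080) encodes a related membrane-type enzyme. It was 19.3, 16.8 and 18.8 FPKM in C57-non-IR, 26.7, 20.4 and 17.5 in C57-IR, 24.3, 16.3 and 20.05 in Slit2-non-IR and 30.1, 19.8 and 27.7 in Slit2-IR hearts. Replicate 1 was the highest heart of every group, and the mean IR difference was 0.27 (SE 0.13, 95% interval -0.03 to 0.57).

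Mmp2 (ENSMUSG00000031740, chr8:92827291-92853420) encodes gelatinase A. It was 18.1, 19.0 and 18.3 FPKM in C57-non-IR, 17.4, 21.7 and 28.2 in C57-IR, 23.7, 18.6 and 20.3 in Slit2-non-IR and 28.5, 21.1 and 27.5 in Slit2-IR hearts. The C57-non-IR hearts were within 1 FPKM of each other, and C57-IR replicate 1 was below all of them. The mean IR difference was 0.26 (SE 0.12, 95% interval 0.01 to 0.52, limma adjusted p = 0.301). Mmp9 (ENSMUSG00000017737, chr2:164940780-164955850) encodes gelatinase B, a product of neutrophils and macrophages. It was 0.116, 0.196 and 0.653 FPKM in C57-non-IR, 0.340, 1.19 and 0.264 in C57-IR, 0.286, 0.319 and 0.234 in Slit2-non-IR and 0.738, 0.810 and 0.304 in Slit2-IR hearts. These values rest on 7 to 83 reads, 3 of the 6 IR libraries were above every non-IR library, and the mean IR difference was 0.29 (SE 0.15, 95% interval -0.04 to 0.61). With limma-voom on the reads the Mmp9 difference was 0.97, larger than the 0.67 of Mmp14, and neither passed.

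Mmp3 (ENSMUSG00000043613, chr9:7445822-7455975) encodes stromelysin-1, which cuts many matrix proteins and activates other MMPs. It was 3.06, 2.24 and 5.87 FPKM in C57-non-IR, 2.10, 3.10 and 7.29 in C57-IR, 2.33, 5.15 and 2.57 in Slit2-non-IR and 4.49, 2.01 and 2.62 in Slit2-IR hearts. Each group held 1 heart well above the other 2, and the mean IR difference was -0.01 (SE 0.28, 95% interval -0.63 to 0.61). Mmp11 (ENSMUSG00000000901, chr10:75923222-75936496) encodes stromelysin-3, which is activated inside the cell by furin. It was 1.94, 1.601 and 1.91 FPKM in C57-non-IR, 1.69, 1.72 and 1.30 in C57-IR, 1.47, 2.22 and 2.01 in Slit2-non-IR and 1.06, 1.87 and 1.79 in Slit2-IR hearts, with a mean IR difference of -0.16 (SE 0.10). Its 2 lowest hearts were both IR hearts, but the groups overlapped in each genotype.

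**Figure D3:**
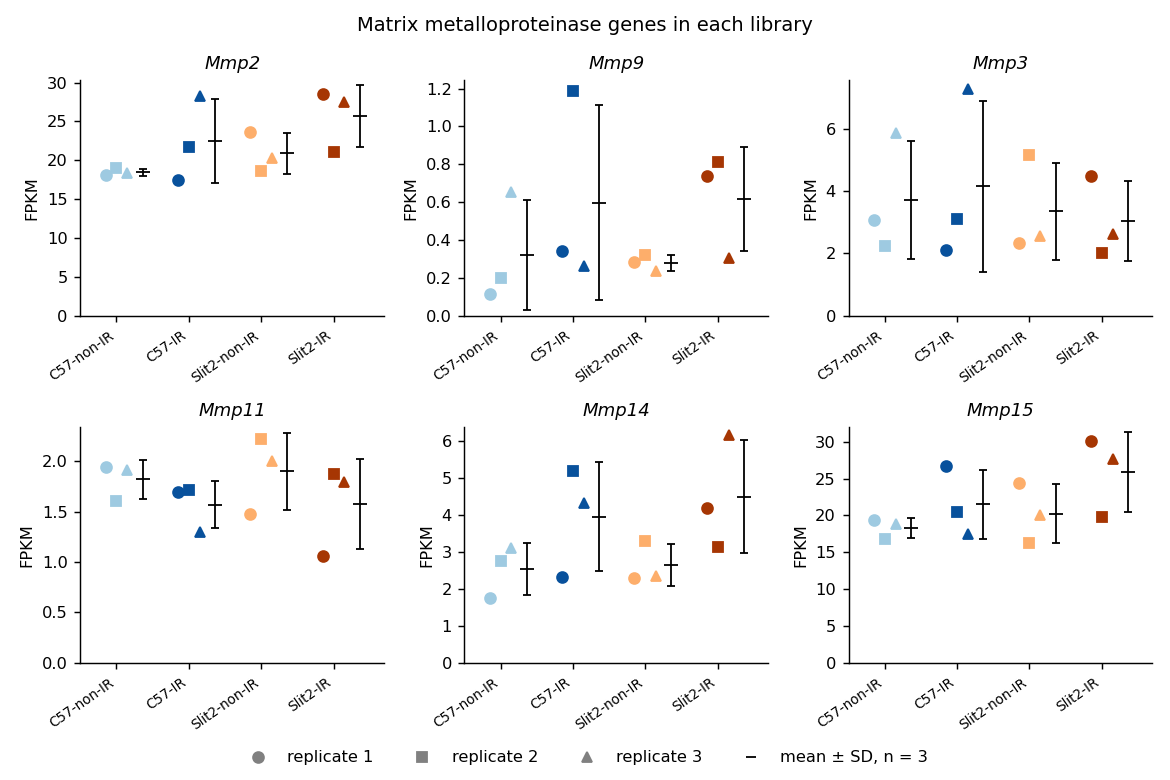
FPKM of the 6 MMP genes in each of the 12 libraries, by group, with marker shapes for replicate numbers and the mean and SD of 3 libraries beside them. Mmp2 and Mmp15 lie between 16.3 and 30.1 FPKM, the other genes below 7.3 FPKM, and the IR and non-IR groups overlap for all 6 genes in both genotypes.

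Several of these genes varied strongly between hearts of the same group. The within-group SD of log2(FPKM + 1) was 0.65 for Timp4, 0.63 for Timp1, 0.57 for Mmp3 and 0.43 for Timp3, at the 98.6, 98.5, 97.9 and 95.4 percentiles of the tested genes. It was 0.36 for Mmp14, at the 92.5 percentile. Mmp11 had the lowest of the 10, 0.18, at the 65.7 percentile. For the genes with the widest spread, the 95% intervals of the mean IR difference ran from -1.04 to 0.37 for Timp4 and from -0.63 to 0.61 for Mmp3.

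Slit2-Tg against C57BL/6J hearts asks whether these genes differed between the lines. The transgene cannot be told apart here from any other difference between the lines, such as one left from the founding cross. None of the 10 genes differed beyond the spread of the hearts. By limma, 0 of 10 genes passed the adjusted threshold in hearts without IR, where 0.0393% of all tested genes did, and 0 of 10 passed after IR, where 0.0459% did. The interaction of genotype and IR passed 0 of 10 genes, against 0% of all genes. At an unadjusted p of 0.05 there were also 0 of 10 genes in each of these contrasts, against 3.18%, 3.16% and 1.85% of all genes, and limma-voom gave 0 of 10 at both thresholds. The difference farthest from 0 was that of Timp4 without IR, with a mean of 13.5 ± 6.71 FPKM (SD, n = 3) in Slit2-non-IR and 20.7 ± 5.39 FPKM in C57-non-IR hearts and a log2 difference of -0.67 (SE 0.45, 95% interval -1.66 to 0.33). After IR the Timp4 difference was -0.38 (SE 0.45). Timp1 after IR was 5.56 ± 2.31 FPKM in Slit2-IR and 6.43 ± 4.04 FPKM in C57-IR hearts, a log2 difference of -0.04 (95% interval -1.01 to 0.92). The Timp1 response to IR differed between the genotypes by -0.18 (95% interval -1.55 to 1.18), an interval that leaves room for a response more than 2-fold weaker or stronger. Without C57-IR replicate 1 and Slit2-IR replicate 1, libraries chosen after seeing the data, the difference after IR was -0.85 and the interaction -0.99, with limma unadjusted p of 0.0179 and 0.0283 and adjusted p of 0.9998 and 0.9999. Mmp15 had the largest positive difference after IR, 0.25 (SE 0.19), with 25.9 ± 5.41 FPKM in Slit2-IR and 21.6 ± 4.69 FPKM in C57-IR hearts. Mmp2 was 25.7 ± 4.04 FPKM in Slit2-IR and 22.5 ± 5.44 FPKM in C57-IR hearts, a log2 difference of 0.20 (95% interval -0.16 to 0.56). The interaction farthest from 0 was that of Timp3, 0.33 (SE 0.43), and it did not pass either threshold.

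**Figure D4:**
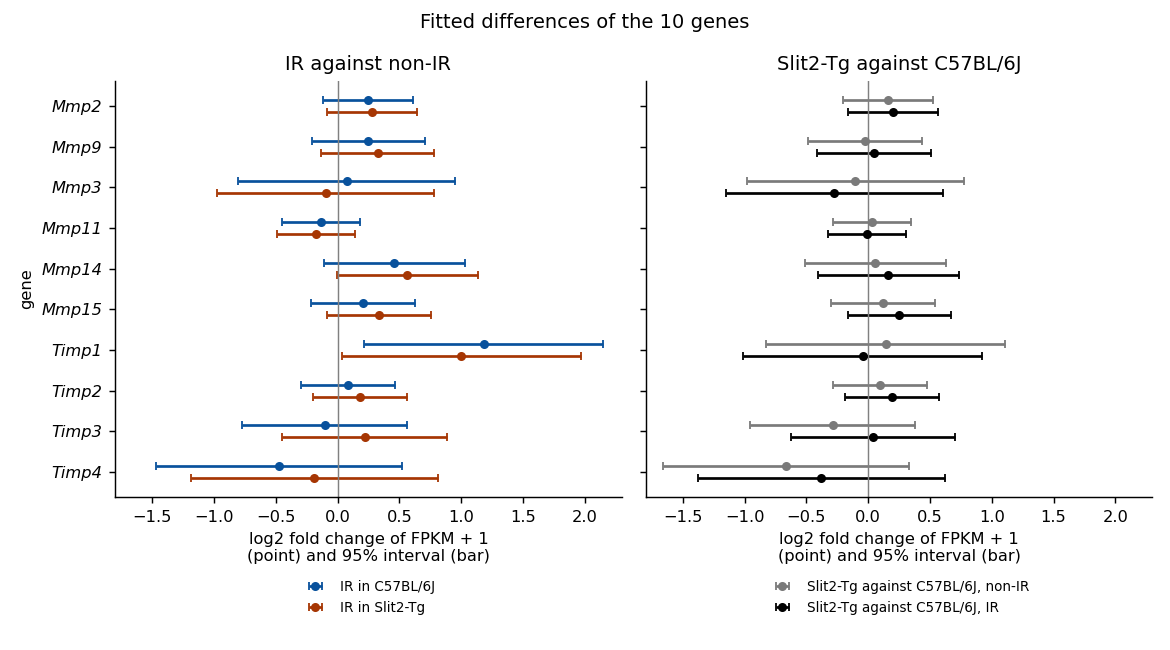
Fitted log2 fold changes of FPKM + 1 for the 10 genes, with 95% intervals, for IR against non-IR in each genotype (left) and for Slit2-Tg against C57BL/6J hearts without and with IR (right). Only the Timp1 intervals for IR (0.22 to 2.15 in C57BL/6J and 0.03 to 1.97 in Slit2-Tg hearts) exclude 0 before adjustment.

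Lists of related genes were chosen by function, and their counts in the mean IR effect stand beside the 3.48% of all tested genes that passed in that contrast. Of the other 17 MMP genes, 7 were abundant enough to be tested, and 1 passed. Mmp28, which encodes epilysin, fell after IR. It was 2.29, 2.04 and 1.94 FPKM in C57-non-IR, 0.828, 1.03 and 1.29 in C57-IR, 1.22, 1.92 and 2.02 in Slit2-non-IR and 0.890, 1.10 and 0.915 in Slit2-IR hearts. The IR hearts were below the non-IR hearts in both genotypes with no overlap, and the log2 difference was -0.53 (SE 0.09, limma adjusted p = 0.00836). Groups without overlap in this lower direction were found for 7.02% of all tested genes in C57BL/6J hearts and 8.31% in Slit2-Tg hearts. Mmp13, the collagenase known as collagenase-3, was 0.461, 0.503 and 0.605 FPKM in C57-non-IR, 1.01, 6.45 and 2.38 in C57-IR, 0.361, 0.697 and 1.30 in Slit2-non-IR and 1.77, 2.49 and 1.997 in Slit2-IR hearts. Its groups did not overlap in either genotype, where 6.74% (C57BL/6J) and 8.64% (Slit2-Tg) of all tested genes were apart in this higher direction. Mmp13 did not pass, with a difference of 1.05 (SE 0.26) and a limma adjusted p of 0.0532. With the block, limma-voom, a pseudocount of 0.1 or the filter of 10 reads in all libraries, and in fits without C57-IR replicate 1 or 2, the count of this list was 2, with Mmp13 added. Mmp8, the collagenase of neutrophils, was at 0 in 11 of 12 libraries.

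Of 32 genes that activate, inhibit, bind or take up MMPs, 30 were tested, and 4 rose and 0 fell for the mean of both genotypes. Without C57-IR replicate 1 the count was 7. Plaur and Plau, a pair of these genes, belong to the plasmin system, which activates several pro-MMPs. Plaur, the urokinase receptor, was 1.27 to 1.997 FPKM in C57-non-IR and 6.37 to 20.8 FPKM in C57-IR hearts, and 0.682 to 1.30 and 7.75 to 14.9 FPKM in the Slit2-Tg groups. Its log2 difference was 2.41 (SE 0.24, limma adjusted p = 0.000847). Plau, urokinase itself, rose by 1.44 (SE 0.18, adjusted p = 0.00245). Thbs1, the matricellular protein thrombospondin-1 that binds MMP2 and MMP9, rose by 2.78 (SE 0.43, adjusted p = 0.00524), and Sdc4, a heparan sulfate proteoglycan of the cell surface, rose by 1.12 (SE 0.15, adjusted p = 0.00333). Plaur and Plau passed in each genotype on its own, and Sdc4 in Slit2-Tg hearts (adjusted p = 0.0404 against 0.0784 in C57BL/6J hearts). These calls within 1 genotype were not stable. In C57BL/6J hearts 0 genes of the list passed without C57-non-IR replicate 1, 2 or 3, without C57-IR replicate 2 or 3, without the filter or in a fit of the 6 libraries alone, and 7 passed without C57-IR replicate 1. In Slit2-Tg hearts 0 passed without Slit2-non-IR replicate 1, 2 or 3, without Slit2-IR replicate 1 or 2 or without the filter, and 1 (Plaur) passed without C57-non-IR replicate 1, 2 or 3 or C57-IR replicate 3. Scaling by total nuclear-encoded reads left 1 (Plaur) in each genotype, and the block gave 4 in each. Reck, a membrane-anchored MMP inhibitor, was 2.11 to 3.53 FPKM over all libraries with a mean IR difference of -0.12 (SE 0.10), and Bsg, an inducer of MMPs also called EMMPRIN, was 580 to 756 FPKM with a difference of -0.03 (SE 0.09).

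Of 24 matrix genes whose proteins are cut by MMPs, all were tested, and 3 rose and 0 fell for the mean of both genotypes. These were Lama4 with a log2 difference of 0.42 (SE 0.09, limma adjusted p = 0.0242), Col5a1 with 0.50 (SE 0.11, adjusted p = 0.0283) and Lamc1 with 0.37 (SE 0.08, adjusted p = 0.0412). The values were higher after IR in 23 of the 24, with a median difference of 0.34, where 51.2% of all tested genes were higher. The count of 3 was not stable. It was 8 when replicate number entered as a block, 5 with limma-voom, 0 with scaling by total nuclear-encoded reads and 0 without the filter on low genes. It was 0 when any of 5 libraries was left out (C57-non-IR replicate 1, C57-IR replicate 2 or 3, or Slit2-non-IR replicate 1 or 2), 1 without C57-non-IR replicate 2 or 3 or Slit2-IR replicate 1 or 3, and 7 without C57-IR replicate 1. The fibroblast marker list shares Col1a1, Col1a2 and Dcn with these 24 genes, and its sums are those given above. Their part in this result was not tested.

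**Figure D5:**
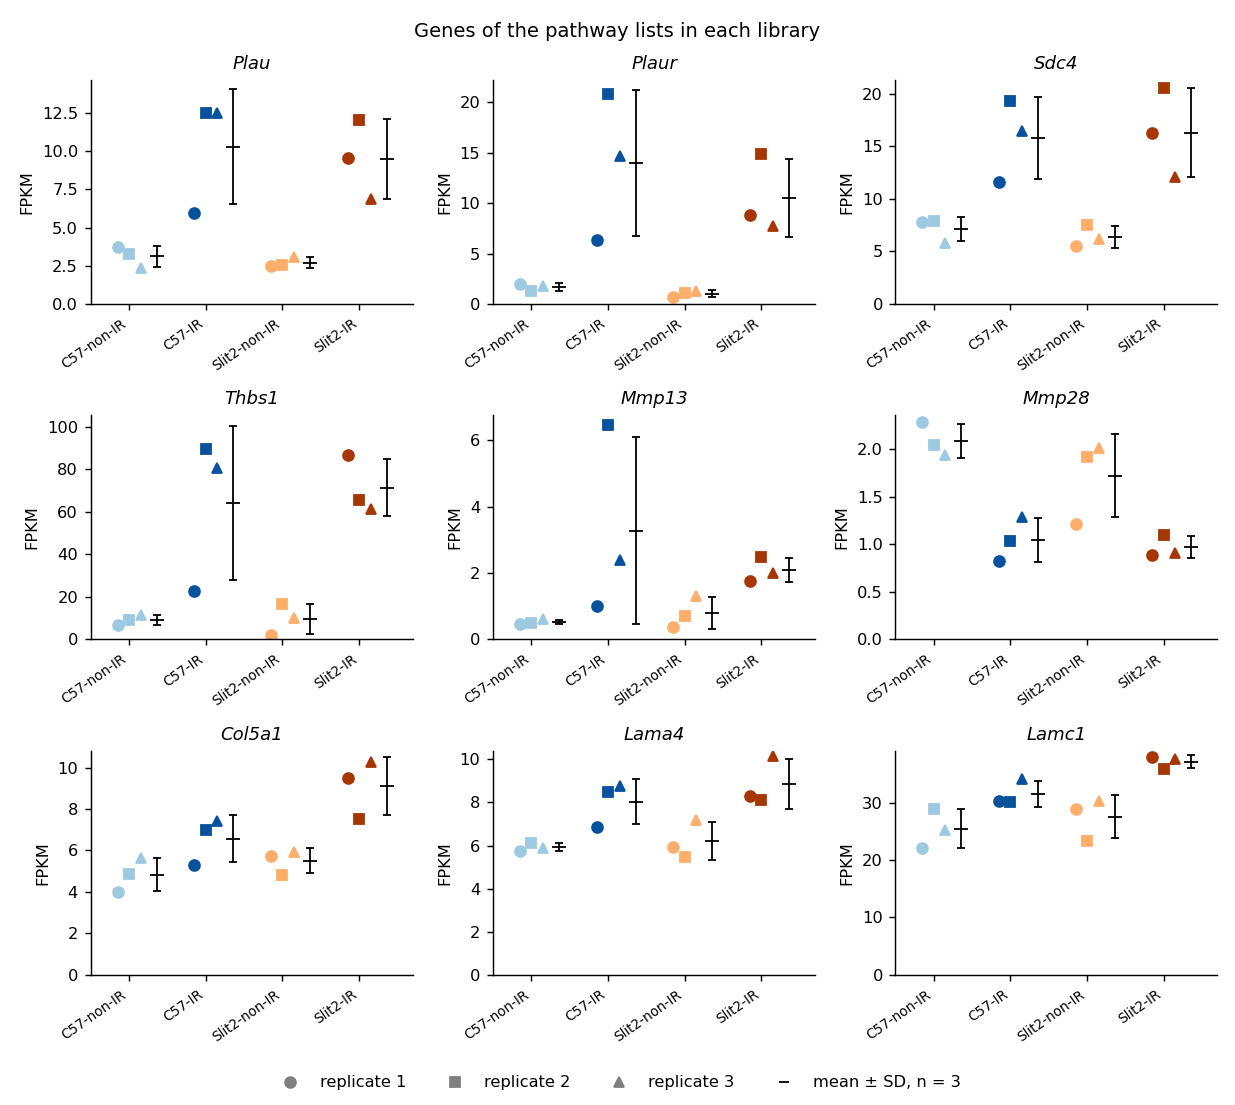
FPKM of 9 genes from the functional lists in each of the 12 libraries, by group, with the mean and SD of 3 libraries. Plau, Plaur, Sdc4, Thbs1, Mmp13, Lama4 and Lamc1 are higher in every IR heart than in the non-IR hearts of the same genotype. Mmp28 is lower in every one. Col5a1 is higher in every IR heart in Slit2-Tg hearts only.

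Across the 12 libraries the genes fell into loosely shared patterns. These libraries fall into 4 groups and differ in depth, so the following values of Pearson's r on log2(FPKM + 1) describe these 12 points only. Timp1 followed Mmp14 (r = 0.831) and Mmp2 (r = 0.806), whereas Mmp15 and Timp4 ran opposite to each other (r = -0.808), as did Mmp2 and Mmp11 (r = -0.708). Replicate 1 was the highest heart of every group for Mmp15 and the lowest for Timp4, and its part in their r was not tested. Of all tested genes, those most like Timp1 were Stx11 (r = 0.954), Trim16 (0.945) and Cx3cl1 (0.944). Those most like Mmp14 were Nfkb1 (0.922), which encodes a subunit of NF-kB, Zc3h15 (0.919) and Sirt2 (0.915). Mmp2 was most like Aacs (0.907), Tmem39b (0.904) and Ecm1 (0.900), and Mmp15 most like Klhl30 (0.956), Rorb (0.940) and Sec31a (0.935). Timp2 was most like 6030408B16Rik (0.956), Kirrel (0.945) and Gsn (0.940), Timp3 most like Gstt1 (0.910), Gpm6a (0.890) and Plcl1 (0.846), and Timp4 most like Sncg (0.951), Wasf2 (0.944) and the mitochondrial tRNA gene mt-Tq (0.943). The most similar genes were Arl5c (0.900), Ptpn22 (0.897) and Dnajb9 (0.892) for Mmp9, Pcdhb18 (0.856), 1700096K18Rik (0.787) and Ppp1r3g (0.786) for Mmp3, and Zufsp (0.883), Gm26532 (0.869) and AW549877 (0.867) for Mmp11.

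Some of these genes share genomic positions with others, which bears on their counts because the use of strand in counting is not stated. Timp1 lies within Syn1, Timp3 within Syn3 and Timp4 within Syn2, each on the opposite strand. Syn1 and Syn3 were at most 0.0952 FPKM and Syn2 was 0.342 to 1.01 FPKM, all far below the Timp genes they hold. In the GENCODE vM21 annotation of GRCm38, whose start and end matched the deposited ones for all 10 genes, Timp1 shares 0 exonic bases with Syn1, Timp4 shares 90 of 5894 with Syn2 and Timp3 shares 1733 of 8144 with Syn3. Mmp11 overlaps the opposite-strand Chchd10, a mitochondrial gene at 158 to 222 FPKM, by 155 of its 2778 exonic bases. Mmp11 was at most 2.22 FPKM, so its values are uncertain, and its r with Chchd10 over the 12 libraries was 0.282. Timp2 overlaps Cep295nl, on the same strand and at most 0.209 FPKM, without shared exonic bases.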

How the data were processed

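RNA of 12 hearts was sequenced in paired-end mode from NEBNext Ultra RNA libraries. The deposited values are FPKM, which the authors computed for every gene in every library and listed with Ensembl gene IDs and positions on GRCm38. HISAT2 and mm10 are named in the submitters' processing notes. The counting tool, its use of strand and the annotation release are not given in the sources used here. When FPKM was multiplied by gene length, 100% of values were whole multiples of a step particular to the library (tolerance of 0.01 read). These steps followed median-of-ratios size factors (relative spread 3.4e-11), and they gave back the reads behind each value. The number of per-library columns left unused was 0.

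Groups were compared with limma's moderated test (variance trend) on log2(FPKM + 1), with all 4 groups in one fit and no covariate. The pseudocount of 1 makes fold changes of low genes too small. A gene was tested where 3 libraries or more reached the equivalent of 10 reads in the median library and its reads summed to 15 or more. The Benjamini-Hochberg adjustment ran over all tested genes, and 0.05 was the threshold. The fit was tested on simulated data for IR in C57BL/6J hearts, where it recovered 191 of 200 genes changed 4-fold among 15258 (95.5%) with 11 false calls. The changed genes were drawn from the better-covered genes, and all genes were given the same dispersion. The recovery therefore does not carry over to smaller differences or to genes with a wide spread such as Timp1, Timp4 and Mmp3. Replicate numbers come from the labels, which name no shared batch. Same-numbered libraries deviated together (correlation over 0.1) in all 3 pairs for Slit2-IR with Slit2-non-IR (correlations 0.142 to 0.295) and for Slit2-IR with C57-IR (0.154 to 0.362). Elsewhere they did so in 2 of 3 pairs, but some differently numbered pairs there also deviated together. C57-non-IR replicate 2 correlated at 0.205 with C57-IR replicate 3 and at 0.305 with Slit2-non-IR replicate 3. Replicates differed by more than sampling noise, with 8.25 to 52.3 chi-square units per gene.

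The genes and lists were chosen with earlier results of these data known. The naming rule took all 10 genes, list genes with an adjusted p under 0.05 in any contrast (up to 6 per list, smallest first), genes overlapping one of the 10, and the 3 tested genes most like each by Pearson's r. Mmp13, Mmp8, Reck, Bsg and marker genes were named after their values were seen. A gene of the list of activators and inhibitors is not reported here and is left out of its counts. Promoter sequences are RefSeq's. The alternatives tried were a pseudocount of 0.1, a filter of only 1 read in total, a filter of 10 reads in all libraries, fits of just the 6 libraries in a comparison, replicate number as a block, scaling by total nuclear-encoded reads, limma-voom on the recovered reads, a robust prior variance, and each library left out in turn. A fit without C57-IR replicate 1 and Slit2-IR replicate 1 was added after the data were seen. The software was limma 3.58.1 under R 4.3.3, with tables by pandas 2.3.3 and plots by matplotlib 3.10.9 under Python 3.11.15.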

Additional observations from a re-analysis of the deposited data

How the results depend on the processing

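The number of genes past the adjusted threshold stayed at 0 in the genotype contrasts, the interaction and IR in Slit2-Tg hearts under every alternative run, including the replicate block. The filter of 10 reads in all libraries left 9 of the 10 genes, without Mmp9. Leaving out 1 library gave between 0 and 1 gene for IR in C57BL/6J hearts and for the mean of both genotypes. The 1 gene was Timp1, without C57-IR replicate 1. It was also called (1 gene in each of these contrasts) when C57-IR replicate 1 and Slit2-IR replicate 1 were both left out, a choice made after seeing the data. Under the replicate block the adjusted p of Timp1 for the mean IR effect was 0.0687, and over all its alternatives it ran from 0.00304 to 0.214. The block changed no adjusted call among the 10 genes. At an unadjusted p of 0.05 it raised the count from 1 to 3 for IR in Slit2-Tg hearts, from 3 to 4 for the mean IR effect (adding Mmp15) and from 0 to 1 (Timp4) between genotypes without IR. The block also raised the IR counts over all genes given below. The share of all genes at this unadjusted threshold under the block is not given here, so these rises are no result about the 10 genes.

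Of 25 fold changes given, 17 kept their direction in every alternative. When single libraries were left out, Timp4 ran from -0.77 to 0.03 for IR in C57BL/6J and from -0.58 to 0.14 in Slit2-Tg hearts. For the mean IR effect, Mmp3 ran from -0.22 to 0.14 and Timp3 from -0.074 to 0.23. Timp1 ran from -0.0011 to 0.30 between genotypes without IR, from -0.64 to 0.29 after IR and from -0.78 to 0.15 for the interaction. Mmp3 was 0.0039 under limma-voom, and Timp3 was -0.033 with scaling by total nuclear-encoded reads. Without both C57-IR replicate 1 and Slit2-IR replicate 1, Timp4 was 0.026 in C57BL/6J hearts, 0.054 in Slit2-Tg hearts and 0.040 for the mean, and Mmp3 was 0.017, while Timp1 between genotypes after IR moved from -0.04 to -0.85 and its interaction from -0.18 to -0.99. The cause was not tested.

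Counts over all genes depended more on the settings. IR in C57BL/6J hearts gave 67 genes, 171 with the block, 32 with limma-voom, 10 with only the 6 libraries compared, 7 without the filter, and 3 to 254 with 1 library left out. IR in Slit2-Tg hearts gave 77, 194 with the block, 121 with limma-voom, 50 with scaling by total reads, 19 without the filter and 4 to 179 with 1 library left out. The mean effect gave 531, 299 without the filter, 773 with the block and 329 to 716 with 1 library left out. The genotype contrasts gave 6 and 7, with 1 to 14 and 4 to 12. Depth limits Mmp9, with 7 reads in its lowest library, the most.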

Other observations

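Summed over the 4 genes, TIMP transcripts were 58.3 to 111 FPKM per library, and the 6 MMP genes summed to 42.5 to 69.1 FPKM. The ratio of the TIMP sum to the MMP sum was 1.74, 2.62 and 1.82 in C57-non-IR, 1.28, 2.08 and 1.68 in C57-IR, 1.07, 1.90 and 2.08 in Slit2-non-IR and 1.35, 2.29 and 1.14 in Slit2-IR hearts. Replicate 1 had the lowest ratio in 3 of the 4 groups. The ratio counts RNA per length and not inhibitor or enzyme molecules. The sum of 8 macrophage markers ranged from 199 to 452 FPKM over the 12 libraries, and replicate 1 had the lowest sum in every group. It was 199 FPKM in C57-IR replicate 1, the IR library with the lowest Timp1 level. In Slit2-IR replicate 1 the sum was 221 FPKM, while its Timp1 level, 7.32 FPKM, was the highest of its group. A link between the macrophage sum and Timp1 was not tested.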
